A study of Mus musculus with 8 samples.

Results

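Macrophage transcripts were followed through 8 RNA-seq libraries of sorted mouse mammary tumor cells. The 10 genes (Lyz2, Adgre1, Csf1r, Cd68, C1qa, C1qb, C1qc, Mrc1, Cd163 and F13a1) were chosen from known macrophage markers with earlier results of these same libraries in view. Their differences between groups are therefore given below as a description. Calls and p-values of these genes are printed, but they are no independent support, also where they stand beside the share of all genes. The members are 10 of the 53697 genes in the deposited table, and all 10 passed the filter on low counts that 18322 genes passed. Each mouse carried the MMTV-PyMT transgene, in which the mouse mammary tumor virus promoter drives the polyoma middle T oncogene in mammary epithelium, together with a reporter of the Notch ligand Dll1. In mice 1 and 2 (PyMT-Dll1 GFP) the reporter was a GFP knock-in, and in mice 3 and 4 (PyMT-Dll1 mCh) it was mCherry on a bacterial artificial chromosome. The labels name no treatment for any of the 4 mice, and their ages are not given in the sources used here. Tumors were digested with collagenase and hyaluronidase, cells stained for CD45, CD31 or TER119 were removed in the sort, and 1 Dll1+ and 1 Dll1- library was made from each mouse, with reporter fluorescence standing for Dll1. Each of the 4 groups therefore held 2 mice, and the reporter line cannot be told apart from anything else that differed between the 2 pairs of mice.

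Macrophages are phagocytes that descend from embryonic precursors or from blood monocytes and depend on signalling through the receptor Csf1r. They engulf dead cells, remodel matrix, present antigen and make much of the C1q that opens the classical complement pathway. In mammary tumors they are an abundant part of the stroma, and in the MMTV-PyMT model they are known for helping tumor cells to invade and to enter vessels. Because they carry the leukocyte antigen CD45, encoded by Ptprc, a sort that removes CD45+ cells is meant to remove them.

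In outline, all 10 genes were detected in every library. In the PyMT-Dll1 mCh mice the 10 genes were 1.65- to 2.40-fold lower in Dll1+ than in Dll1- cells. In the PyMT-Dll1 GFP mice 9 of them lay between 0.925- and 1.49-fold, while F13a1 was 3.40-fold higher in Dll1+ cells. The Dll1- cells of the mCh mice held 1.92- to 7.41-fold more of these transcripts than the Dll1- cells of the GFP mice, and F13a1 was again the gene that stood apart, with the smallest of those folds.

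No link between start regions and expression was tested. The start regions of 4 of the genes are shown, namely the 3 genes with a match to the motif described below and C1qb, which had none. They were read from RefSeq on GRCm38.p6 and start 250 bases before the RefSeq start, with bases past an earlier GENCODE start left off, so that 228 remain for Mrc1 and 99 for C1qc. They are printed 5′ to 3′ on the gene's strand. Capitals mark GAGGAAG, a form of the motif of the macrophage and B cell factor PU.1 (Spi1), or its reverse complement CTTCCTC; positions below count back from the RefSeq start, and the search covered all 250 bases. The Mrc1 window is chr2:14229164-14229391 (+), the C1qc window chr4:136893066-136893164 (-), the C1qb window chr4:136886201-136886450 (-) and the F13a1 window chr13:37050245-37050494 (-).
Mrc1: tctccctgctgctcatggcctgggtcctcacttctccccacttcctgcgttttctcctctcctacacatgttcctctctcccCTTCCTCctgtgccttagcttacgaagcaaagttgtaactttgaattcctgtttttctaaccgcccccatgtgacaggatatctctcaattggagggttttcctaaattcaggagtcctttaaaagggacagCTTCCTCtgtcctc
C1qc: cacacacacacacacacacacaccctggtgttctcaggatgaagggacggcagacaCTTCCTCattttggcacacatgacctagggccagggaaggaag
C1qb: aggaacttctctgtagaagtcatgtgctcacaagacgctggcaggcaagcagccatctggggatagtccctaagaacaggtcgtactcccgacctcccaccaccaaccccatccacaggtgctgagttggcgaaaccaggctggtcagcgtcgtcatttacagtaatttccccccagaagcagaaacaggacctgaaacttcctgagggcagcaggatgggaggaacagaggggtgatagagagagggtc
F13a1: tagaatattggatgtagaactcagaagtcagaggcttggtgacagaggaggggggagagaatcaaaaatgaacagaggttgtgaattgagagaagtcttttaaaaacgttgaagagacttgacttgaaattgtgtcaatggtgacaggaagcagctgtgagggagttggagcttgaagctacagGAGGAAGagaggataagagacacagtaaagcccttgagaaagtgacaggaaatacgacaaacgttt
The Mrc1 window held the motif on the antisense strand at positions -168 and -36, the C1qc window held it once on the antisense strand at -194, and F13a1 held it once on the sense strand at -66. The C1qb window held no match, nor did the windows of Cd163, Lyz2, Cd68 and a second F13a1 start. In all, 3 of the 8 windows of the 7 genes that had an entry matched, against 10.6% of 32851 promoter windows of 250 bases over the whole genome. The E-box CACGTG, which is its own reverse complement, was in none of the 8 windows of these genes and in 6.02% of all. Csf1r, C1qa and Adgre1 had no entry.

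All 8 libraries held the epithelial marker Epcam, and markers of other cells were present at unequal levels. Total counts ran from 27301396 to 123907626, so that 3 counts correspond to 0.0242 to 0.11 in the unit used below, CPM, which is counts scaled to a common library total. All CPM values are scaled by the trimmed mean of M values (TMM), a scaling factor computed across genes. The epithelial adhesion gene Epcam was at 899 to 1240 CPM. Dll1 was higher in the Dll1+ library of every mouse, going from 7.61 to 87.5, 13.7 to 138, 34.7 to 203 and 50.3 to 250 CPM in mice 1 to 4. Of the genes whose proteins were used to remove cells, Ptprc was at 2.88 to 4.39 CPM in the 4 GFP libraries and at 5.32 to 12.7 CPM in the 4 mCh libraries, and Pecam1 (CD31) was at 13.7 to 14.3 and 24.1 to 98.2 CPM. The Dll1- libraries of the mCh mice stood apart, since the summed level of 11 fibroblast genes was 8430 and 24200 CPM there and 1250 to 3870 CPM in the other 6 libraries. Comparisons between mice are given with each mouse left out where that changes them.

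The first genes mark the macrophage lineage itself. Csf1r (ENSMUSG00000024621.15, on chromosome 18), the receptor for Csf1 and Il34, was at 13.3 and 11.7 CPM in the Dll1- cells of GFP mice 1 and 2 and at 13.8 and 13 CPM in their Dll1+ cells. In mCh mice 3 and 4 it was at 50.1 and 58.5 CPM in Dll1- cells and at 22.3 and 24.9 CPM in Dll1+ cells. The 4 GFP libraries thus lay within a narrow band below every mCh library, and in both mCh mice the Dll1- library was the higher one. The span of the Csf1r gene overlaps that of Hmgxb3 on the other strand by 873 bases, and the library kit keeps strand.

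Adgre1 (ENSMUSG00000004730.15, chromosome 17, 57358691 to 57483527, + strand), which encodes the F4/80 antigen, was at 5.53 and 3.29 CPM in Dll1- cells and at 3.98 and 3.94 CPM in Dll1+ cells of GFP mice 1 and 2. It was at 18.2 and 17.8 CPM in Dll1- cells and at 9.25 and 7.18 CPM in Dll1+ cells of mCh mice 3 and 4. The 2 GFP mice went opposite ways, by -0.47 and 0.25 on the log2 scale, while both mCh mice were lower in Dll1+ cells.

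Cd68 (ENSMUSG00000018774.13, chromosome 11, 69664213 to 69666153, - strand), a glycoprotein of the lysosome, was at 8.60 and 7.11 CPM in GFP Dll1- cells and at 12.5 and 10.9 CPM in GFP Dll1+ cells. In the mCh mice it was at 24.7 and 30.2 CPM in Dll1- cells and at 13.2 and 20.8 CPM in Dll1+ cells. Cd68 sat above 0 in both GFP mice, at 0.54 and 0.62 on the log2 scale, and below 0 in both mCh mice, at -0.90 and -0.53. It is also made by other cells with lysosomes.

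Lyz2 (ENSMUSG00000069516.8, chromosome 10, 117277331 to 117282321, - strand), the lysozyme of macrophages, monocytes and neutrophils, had the highest mean level of the 10 over the 8 libraries, although F13a1 was above it in the Dll1+ library of mouse 2. Its level was 46.4 and 36.5 CPM in GFP Dll1- cells, 47.5 and 38.2 CPM in GFP Dll1+ cells, 220.0 and 241 CPM in mCh Dll1- cells and 95.2 and 105 CPM in mCh Dll1+ cells. Within either GFP mouse the fractions differed by no more than 0.07 on the log2 scale, against -1.21 and -1.20 in the mCh mice. Lyz2 has the near-identical neighbour Lyz1, which was at 0.209 to 2.71 CPM, so the split of reads between the pair is uncertain.

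C1qa, C1qb and C1qc encode the A, B and C chains that assemble into C1q, the recognition part of the classical complement pathway. The 3 genes lie side by side on the - strand of chromosome 4, with C1qb (ENSMUSG00000036905.8) at 136880129 to 136886187, C1qc (ENSMUSG00000036896.5) at 136889804 to 136893065 and C1qa (ENSMUSG00000036887.5) at 136895917 to 136898803. C1qa was at 15 and 9.60 CPM in GFP Dll1- cells, 14.2 and 12.2 CPM in GFP Dll1+ cells, 94.4 and 88.1 CPM in mCh Dll1- cells and 40.6 and 37.9 CPM in mCh Dll1+ cells. C1qb took the values 13 and 10.3, 12.2 and 11.5, 84.4 and 77.2, and 36.6 and 32.6 CPM in the same order. C1qc took 11.7 and 9.74, 11.4 and 11.4, 71.5 and 69.6, and 33.1 and 30.3 CPM. No GFP library reached any mCh library for any chain. The mCh Dll1- cells held 7.41-, 6.93- and 6.57-fold more C1qa, C1qb and C1qc than the GFP Dll1- cells, the 3 greatest of the 10 folds.

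Mrc1 and Cd163 encode scavenger receptors, for mannosylated glycoproteins and for haemoglobin bound to haptoglobin, that are much used as marks of tissue-resident and alternatively activated macrophages. Mrc1 (ENSMUSG00000026712.3, chromosome 2, 14229392 to 14332057, + strand) was at 4.91 and 6.45 CPM in GFP Dll1- cells, 5.06 and 8.41 CPM in GFP Dll1+ cells, 16.0 and 22.4 CPM in mCh Dll1- cells and 6.10 and 10.2 CPM in mCh Dll1+ cells. Cd163 (ENSMUSG00000008845.9, chromosome 6, 124304656 to 124330527, + strand) was the scarcest gene, at 1.30 and 1.87, 2.13 and 2.21, 3.38 and 7.43, and 1.63 and 3.54 CPM in the same order, from 38 to 422 counts. For both genes the GFP and mCh mice overlapped in Dll1+ cells but not in Dll1- cells, and within the mCh line mouse 4 lay above mouse 3 in both fractions.

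F13a1 (ENSMUSG00000039109.16, chromosome 13, 36867178 to 37050244, - strand) encodes the A chain of coagulation factor XIII, the transglutaminase that cross-links fibrin, and is made by monocytes, macrophages and megakaryocytes. It was at 7.27 and 13.4 CPM in GFP Dll1- cells and at 22.2 and 50.0 CPM in GFP Dll1+ cells, from 213, 386, 638 and 2235 counts. In the mCh mice it was at 14.4 and 25.4 CPM in Dll1- cells and at 8.99 and 14.2 CPM in Dll1+ cells. The highest F13a1 value of the 8 libraries was thus in a GFP Dll1+ library, whereas for each of the other 9 genes it was in an mCh Dll1- library. In Dll1+ cells both GFP mice lay above both mCh mice, and in Dll1- cells both mCh mice lay above both GFP mice. Its 2 antisense neighbours, Gm49144 and Gm30489, had a mean of 0.875 and 0 counts.

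**Figure D1:**
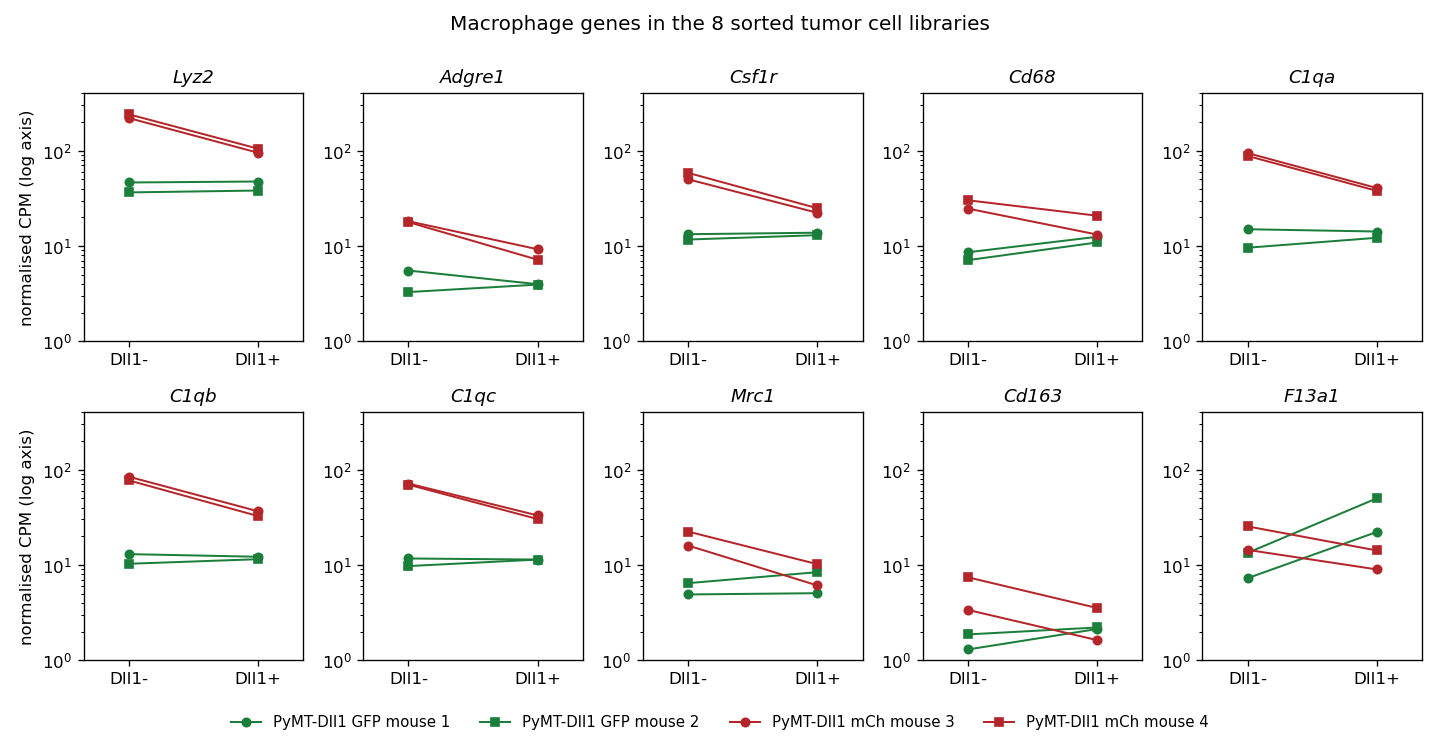
Level of each of the 10 macrophage genes in each library, as TMM-normalised CPM on a log axis, with the Dll1- and Dll1+ library of 1 mouse joined by a line (green, PyMT-Dll1 GFP; red, PyMT-Dll1 mCh). The red lines fall from Dll1- to Dll1+ in all 10 panels, the green lines are close to level in most, and for F13a1 they climb from 7.27 and 13.4 CPM to 22.2 and 50.0 CPM.

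Between genes, levels were compared per kilobase of exon. The mean over the 8 libraries was 78.7 CPM per kilobase for Lyz2, 37.5 for C1qa, 31.9 for C1qb, 16.1 for C1qc and 12.7 for Cd68, and then 4.49 for Csf1r, 2.89 for F13a1, 2.67 for Adgre1, 1.56 for Mrc1 and 0.538 for Cd163. Lyz2 was above the rest in every library, and Cd163 below the rest. Several neighbours in that order changed places between libraries. C1qb passed C1qa in the Dll1- cells of mouse 2, at 9.46 against 9.23 CPM per kilobase. Cd68 was above C1qc in all 4 GFP libraries and below it in 3 of the 4 mCh libraries. F13a1 was above Csf1r in the 2 GFP Dll1+ libraries only, at 3.30 against 2.39 and at 7.42 against 2.24 CPM per kilobase.

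Dll1+ and Dll1- cells of the same mouse were compared to ask which transcripts go with the ligand. Over the 4 mice together, edgeR's quasi-likelihood test with mouse as a block called 0 of the 10 genes at a Benjamini-Hochberg adjusted p under 0.05, and 1 had an unadjusted p under 0.05. DESeq2 also called 0. Over all genes tested, 6.98% were called higher and 7.04% lower in Dll1+ cells. With library size alone in place of TMM, 35.6% of the calls over 4 mice were higher instead of 49.8%. The median log2 fold change of the 10 was -0.57, against -0.001 over all genes. Adgre1 had the lowest at -0.66 (SE 0.27) and F13a1 the highest at 0.48 (SE 0.60), and the wide errors go with mice that moved in opposite directions.

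In the mCh mice, fitted in 1 model with the GFP mice so that all 8 libraries share the estimate of spread, all 10 genes were called lower in Dll1+ cells, where 6.25% of all genes were called lower and 5.51% higher. The log2 fold changes were -1.20 (SE 0.07) for Lyz2, -1.20 (SE 0.09) for Csf1r, -1.14 (SE 0.20) for Adgre1 and -0.72 (SE 0.13) for Cd68. They were -1.22 (SE 0.11), -1.22 (SE 0.10) and -1.16 (SE 0.10) for C1qa, C1qb and C1qc, -1.26 (SE 0.15) for Mrc1, -1.06 (SE 0.22) for Cd163 and -0.76 (SE 0.12) for F13a1. Leaving out a mouse left 8 of the 10 called without mouse 1 or mouse 2 and 7 without mouse 3 or mouse 4. In a fit of the mCh mice alone, 0 of the 10 genes and 0 of all genes were called, although 5512 of all genes had an unadjusted p under 0.05, and the same 10 log2 fold changes ran from -1.28 to -0.74. In bulk RNA, fewer cells with these transcripts and a lower level per cell cannot be told apart. Which cells in the sort held them was not tested.

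In the GFP mice the same fit called 1 of the 10 genes higher and 0 lower, where 4.29% of all genes were called higher and 4.84% lower. With library size alone, 33.8% of the GFP calls were higher instead of 47.0%. The 1 gene was F13a1, at 1.76 (SE 0.12) on the log2 scale. Cd68 followed at 0.58 (SE 0.14), Cd163 at 0.47 (SE 0.24) and Mrc1 at 0.22 (SE 0.16), and the other 6 lay between -0.11 and 0.13. Of the 10, 2 had an unadjusted p under 0.05. DESeq2 called 2 higher and 0 lower. When either GFP mouse was left out the call of F13a1 was lost, with its log2 fold change at 1.91 without mouse 1 and 1.62 without mouse 2.

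**Figure D2:**
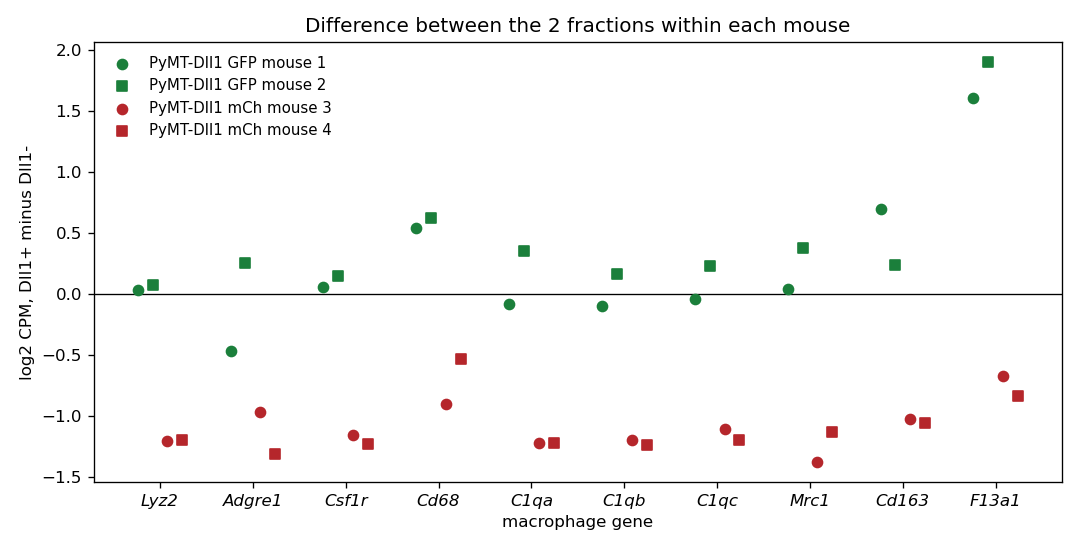
Difference in log2 CPM between the Dll1+ and the Dll1- library of each mouse for the 10 macrophage genes, 1 point per mouse. The mCh mice (red) lie between -1.38 and -0.53 for every gene, and the GFP mice (green) lie between -0.47 and 0.70 for 9 genes and at 1.61 and 1.90 for F13a1.

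Set against each other, the 2 reporter lines differed in the Dll1 effect by 1.03 to 2.52 on the log2 scale, with the GFP effect above the mCh effect for all 10 genes. The test of that difference called 2 of the 10, Lyz2 at 1.25 (SE 0.10) and F13a1 at 2.52 (SE 0.17), and 0.0655% of all genes were called in this direction and 0.00546% in the other. DESeq2 called 8 of the 10, as did edgeR without mouse 3, and leaving out either GFP mouse left 0, with 0 of all genes called and 2124 or 1808 of them at an unadjusted p under 0.05.

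Between the lines, Dll1- cells were compared first. All 10 genes were higher in the mCh mice, and 9 were called, where 18.7% of all genes were called higher and 17.9% lower. The exception was F13a1, at 0.94 (SE 0.51) on the log2 scale. The other log2 fold changes were 1.75 (SE 0.36) for Mrc1, 1.76 (SE 0.52) for Cd163, 1.80 (SE 0.25) for Cd68, 2.03 (SE 0.27) for Adgre1, 2.12 (SE 0.14) for Csf1r and 2.47 (SE 0.16) for Lyz2, and 2.89 (SE 0.21), 2.79 (SE 0.15) and 2.72 (SE 0.13) for C1qa, C1qb and C1qc. In Dll1+ cells 6 genes were called higher and 1 lower in the mCh mice, where 15.2% of all genes were called higher and 15.4% lower. The 6 were Lyz2, Adgre1, Csf1r and the C1q chains, at 0.82 to 1.58 on the log2 scale, and the 1 was F13a1 at -1.64 (SE 0.51). That call of F13a1 was lost without any 1 of the 4 mice, with the 4 Dll1+ libraries alone and with no filter on low counts. Cd68 was at 0.54 (SE 0.24), Mrc1 at 0.27 (SE 0.35) and Cd163 at 0.25 (SE 0.50). Leaving out either GFP mouse ended every call of both comparisons for all genes, although 4387 to 5529 genes had an unadjusted p below 0.05, and the median of the 10 then lay at 2.02 to 2.32 in Dll1- cells and 0.89 to 0.95 in Dll1+ cells. Mouse cannot be a fixed block here, because each mouse belongs to 1 line. As a random effect in limma it left 8 of the 10 called higher in Dll1- cells.

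Ratios between the 10 genes showed how tightly they kept step. The C1q chains held the closest ratios, with a standard deviation of the log2 ratio over the 8 libraries of 0.0672 to 0.146 for the 3 pairs. The C1qa to C1qb ratio stayed between 0.933 and 1.16 while the level of C1qa itself ran from 9.60 to 94.4 CPM. Over the 36 pairs without F13a1 the median standard deviation was 0.405, and over the 9 pairs with F13a1 it was 1.39, with a range of 0.890 to 1.64. The mean standardised log2 level of the other members correlated with each gene at a Pearson r of 0.850 to 0.982 over the 8 libraries, except for F13a1 at 0.0746. Pericyte, fibroblast and endothelial genes followed the mean of all 10 about as closely, at a median r of 0.965, 0.96 and 0.955. Basal and luminal genes did so less, at 0.553 and 0.223. These are descriptions over libraries that fall into 2 reporter lines.

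Relative to Csf1r, C1qa set the 2 lines apart, and F13a1, Cd68 and Cd163 were higher in the Dll1+ fraction of every mouse. The C1qa to Csf1r ratio was 0.822 to 1.13 in the 4 GFP libraries and 1.51 to 1.88 in the 4 mCh libraries, and within a mouse it changed by less than it differed between the lines. The F13a1 to Csf1r ratio was higher in Dll1+ than in Dll1- cells of all 4 mice, going from 0.548 to 1.61, 1.15 to 3.86, 0.286 to 0.402 and 0.434 to 0.569 in mice 1 to 4. The Cd68 to Csf1r ratio went from 0.648 to 0.904, 0.608 to 0.843, 0.493 to 0.593 and 0.516 to 0.835 in the same order. The Cd163 to Csf1r ratio moved less in 3 of the 4, from 0.0977 to 0.154, 0.160 to 0.171, 0.0674 to 0.0731 and 0.127 to 0.142. Although F13a1 was lower in the Dll1+ cells of the mCh mice, it was lower by less than Csf1r. The Csf1r to Ptprc ratio was 3.14 to 4.84 over all 8 libraries, so the receptor and the leukocyte antigen kept near step across both lines.

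**Figure D3:**
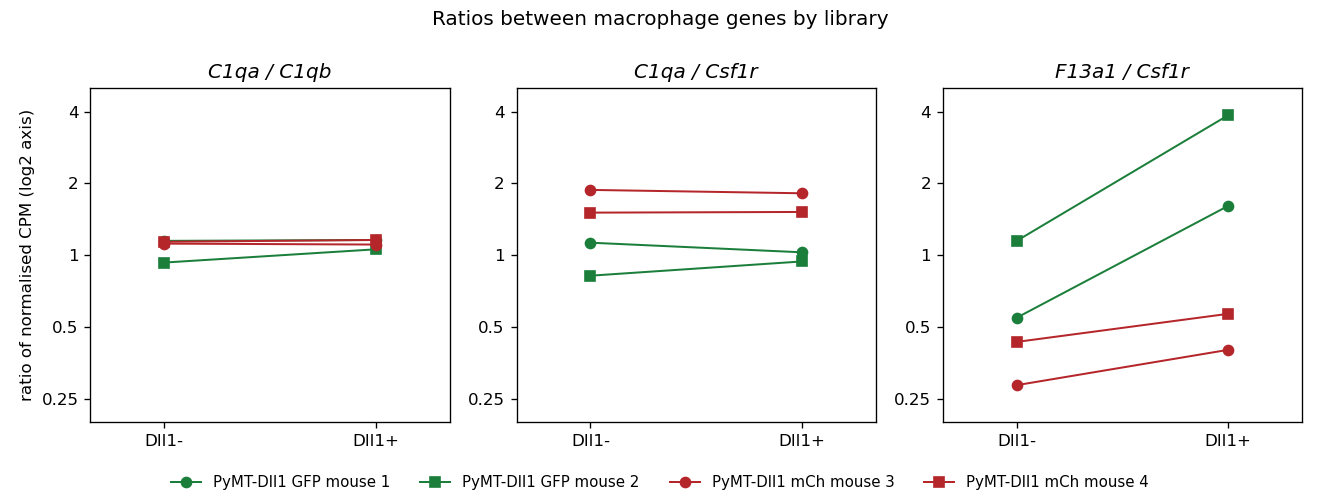
Ratio of normalised CPM between pairs of macrophage genes in each library on a log2 axis, with the fractions of 1 mouse joined. C1qa to C1qb stays near 1 in all 8 libraries, C1qa to Csf1r separates the mCh mice (1.51 to 1.88) from the GFP mice (0.822 to 1.13), and F13a1 to Csf1r climbs from Dll1- to Dll1+ in all 4 mice.

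Other genes of mononuclear phagocytes were taken from a list that leaves out the 10. In the mCh mice 20 of its 27 tested genes fell in Dll1+ cells and 1 rose, where 6.25% of all genes were called lower and 5.51% higher. The median log2 fold change was -1.10, against 0.021 over all genes. Ctss, the lysosomal protease cathepsin S, was at 91.0 and 92.5 CPM in mCh Dll1- cells and 46.7 and 45.8 CPM in mCh Dll1+ cells, a log2 fold change of -0.99 (SE 0.13, edgeR adjusted p = 0.0123). The 1 gene that rose was Cd14, the lipopolysaccharide co-receptor, from 147 to 236 CPM in mouse 3 and from 279 to 423 CPM in mouse 4, at 0.64 (SE 0.08, edgeR adjusted p = 0.0120). Cd14 also rose in the GFP mice, from 194 to 338 and from 176 to 288 CPM, at 0.76 (edgeR adjusted p = 0.00631). Sirpa, the receptor for the signal Cd47, was at -0.28 in the mCh mice (edgeR adjusted p = 0.165). Leaving out a mouse moved the count of 20 to 15 without mouse 1, 14 without mouse 2, 12 without mouse 3 and 7 without mouse 4, and the mCh mice fitted alone gave 0.

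In the GFP mice the same list had 2 higher, Cd14 among them, and 0 lower, where 4.29% of all genes were called higher and 4.84% lower. The list had a median of 0.12, 5 genes at an unadjusted p under 0.05 and 2 calls by DESeq2. Without either GFP mouse the 2 calls became 0, with 6 genes at an unadjusted p under 0.05 without mouse 1 and 3 without mouse 2. Between the lines, 23 of the 27 were higher in mCh than in GFP Dll1- cells, where 18.7% of all genes were called higher and 17.9% lower. The median log2 fold change was 1.97, and the 4 other genes included Cd14, Sirpa and the engulfment receptor Mertk. In Dll1+ cells 13 were higher and 1 lower, where 15.2% of all genes were called higher and 15.4% lower. The test of a difference in Dll1 effect between the lines called 0 of the 27, where 0.0655% of all genes were called higher and 0.00546% lower. With so few calls over all genes, that 0 cannot tell whether the list responds differently in the 2 lines. Of the 27, 22 had an unadjusted p under 0.05, as did 2420 of all 18322 genes. DESeq2 called 10 of the 27 and 541 of all genes. Without either GFP mouse, 0 of the 27 were called between the lines.

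Genes of resident and perivascular macrophages were more mixed. Of 15 tested, 6 fell and 1 rose in the mCh Dll1+ cells, where 6.25% of all genes were called lower and 5.51% higher. The 6 were Stab1, Ccl8, Folr2, Cd209f, Pf4 and Cd209d, and the 1 was Cbr2, a carbonyl reductase, which went from 39.5 to 96.1 and from 41.7 to 81.2 CPM (log2 fold change 1.12, SE 0.10, edgeR adjusted p = 0.00707). Cbr2 rose in the GFP mice too, from 30.1 to 80.4 and from 20.4 to 48.4 CPM (1.33, edgeR adjusted p = 0.00350). Gas6, a ligand of Mertk, was the most abundant of the list at 164 to 365 CPM and was at 0.61 in the mCh mice (edgeR adjusted p = 0.171). Selenop, a selenium carrier, ran from 130.0 to 247 CPM with a log2 fold change of -0.07 in the mCh mice (edgeR adjusted p = 0.780). Colec12, a scavenger receptor, was at 52.0 and 96.6 CPM in mCh Dll1- cells and 29.7 and 32.8 CPM in mCh Dll1+ cells (edgeR adjusted p = 0.165). Between the lines 13 of the 15 were higher in mCh Dll1- cells and 3 in mCh Dll1+ cells, against 18.7% and 15.2% of all genes. Without mouse 4 the 6 became 2, and without mouse 1 or 2 they became 4.

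Genes of alternative activation gave 4 of 9 lower and 0 higher in the mCh Dll1+ cells, where 6.25% of all genes were called lower and 5.51% higher. The 4 were the lectins Clec10a, Mgl2 and Cd209a and the cytokine Il10. The count of 4 went to 2 without mouse 1, 2 or 3, to 0 without mouse 4 with 4 at an unadjusted p under 0.05, and to 1 by DESeq2. Arg1, the arginine-consuming enzyme, varied more between the mice than between the fractions, at 165 and 172 CPM in mouse 3 and 48.7 and 26.0 CPM in mouse 4, with a log2 fold change of -0.41 (edgeR adjusted p = 0.526). Socs2, a feedback inhibitor of cytokine receptors, was the 1 gene called in the GFP mice, higher at 0.48 (edgeR adjusted p = 0.0156). In those mice 4.29% of all genes were called higher and 4.84% lower. Il4ra, the receptor chain for interleukin 4, was at -0.47 in the mCh mice (edgeR adjusted p = 0.276). Retnla, a secreted marker of this state, was at 6.39 and 10.3 CPM in mCh Dll1- cells and at 0.478 and 0.451 CPM in GFP Dll1- cells, a log2 fold change of 4.16 (SE 0.64, edgeR adjusted p = 0.00445). Between the lines 7 of the 9 were higher in mCh Dll1- cells, against 18.7% of all genes.

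Antigen presentation on MHC class II moved in the same direction as the 10 genes. In mCh Dll1+ cells 5 of 7 genes fell and 0 rose, with a median of -1.05, where 6.25% of all genes were called lower and 5.51% higher. Cd74, the invariant chain, was at 412 and 398 CPM in mCh Dll1- cells, 216 and 171 CPM in mCh Dll1+ cells and 49.0 to 58.2 CPM in the 4 GFP libraries. H2-Aa, H2-Ab1 and H2-Eb1, which encode the class II chains, had log2 fold changes of -1.06, -1.05 and -1.08 in the mCh mice (edgeR adjusted p = 0.0100, 0.00707 and 0.00707) and of 2.92, 2.85 and 3.04 between the lines in Dll1- cells (edgeR adjusted p = 0.000792, 0.000792 and 0.000930). In the GFP mice 1 of the 7 was higher (H2-DMb1) and 1 lower (Ciita, the class II transactivator), and Cd74 was at 0.06 (edgeR adjusted p = 0.769). The shares of all genes there were 4.29% called higher and 4.84% lower. MHC class II is also carried by dendritic cells and B cells.

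Beyond C1q, the other classical complement genes lay on the same side as the 10 genes in the mCh mice. In mCh Dll1+ cells 4 of 10 were lower and 0 higher, where 6.25% of all genes were called lower and 5.51% higher. All 10 lay below 0, with a median log2 fold change of -2.0 and 8 at an unadjusted p under 0.05. In mCh against GFP Dll1- cells 8 of 10 were higher and 0 lower, with a median of 2.92, against 18.7% and 17.9% of all genes. Serping1, the C1 inhibitor, was at 199 and 660.0 CPM in mCh Dll1- cells and 55.0 and 63.5 CPM in mCh Dll1+ cells (log2 fold change -2.62, SE 0.43, edgeR adjusted p = 0.0462), so mouse 4 exceeded mouse 3 by far more than for any C1q chain. C3 was at 264 and 801 CPM in mCh Dll1- cells and 238 and 96.1 CPM in mCh Dll1+ cells (edgeR adjusted p = 0.345). C4b was at 193 to 633 CPM (edgeR adjusted p = 0.368 in the mCh mice). C1qtnf1, which has a C1q-like domain but is no part of C1, fell in both lines, at -0.56 in the mCh mice (edgeR adjusted p = 0.0293) and -0.96 in the GFP mice (edgeR adjusted p = 0.00733). The other 2 that fell were the C1s genes C1s1 and C1s2, whose products carry the protease of C1. The 4 became 8 without mouse 3 and 7 by DESeq2.

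Ligands that recruit or sustain macrophages were read in the same libraries. Of 13 tested, 2 rose and 5 fell in mCh Dll1+ cells, where 5.51% of all genes were called higher and 6.25% lower. In the GFP mice 0 were called, 3 had an unadjusted p under 0.05 and DESeq2 called 1. Of all genes, 4.29% were called higher and 4.84% lower in the GFP mice. The 2 that rose were Cx3cl1, the ligand of Cx3cr1, from 104 to 184 and 130.0 to 205 CPM (log2 fold change 0.74, SE 0.09, edgeR adjusted p = 0.0108), and Vegfa, from 90.4 to 155 and 169 to 274 CPM (0.74, SE 0.08, edgeR adjusted p = 0.00846). In the GFP mice they were at 0.31 and 0.25 (edgeR adjusted p = 0.0853 and 0.0951). These 2 were among the 3 most abundant ligands, with Mif.

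Of the 2 ligands of Csf1r, Csf1 was at 52.4 to 81.4 CPM in the GFP libraries and at 65.6 to 147 CPM in the mCh libraries, with a log2 fold change of -0.50 in the mCh mice (edgeR adjusted p = 0.176). Il34 was at 20.2 and 32.6 CPM in mCh Dll1- cells and 6.07 and 4.23 CPM in mCh Dll1+ cells, a log2 fold change of -2.33 (SE 0.38, edgeR adjusted p = 0.0297), and at 1.22 to 3.17 CPM in the GFP libraries. The chemokines Ccl2, Ccl7, Ccl12 and Ccl4 were the other 4 that fell, at -0.72, -1.33, -1.38 and -0.91 (edgeR adjusted p = 0.0340, 0.0114, 0.0307 and 0.0472). Ccl2 was 13.5 CPM in the Dll1- cells of mouse 3 and 49.9 CPM in those of mouse 4. Between the lines 11 of the 13 were higher in mCh Dll1- cells and 1, Cx3cl1, was lower at -0.57 (edgeR adjusted p = 0.0222). Over all genes 18.7% were called higher and 17.9% lower. The count of 5 that fell went to 2 without mouse 1 or 2, 3 without mouse 3 and 1 without mouse 4.

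Markers of other cells moved with the macrophage genes, and their part in the results was not tested. The counts below stand beside 6.25% of all genes called lower and 5.51% called higher in mCh Dll1+ cells. In mCh Dll1+ cells 5 of 11 endothelial, 5 of 11 fibroblast, 7 of 8 pericyte and 4 of 5 tested erythroid genes fell and 0 of them rose, with medians of -1.36, -2.20, -2.39 and -1.39 on the log2 scale. All tested genes of these lists lay below 0. An unadjusted p under 0.05 was reached by 11 endothelial, 9 fibroblast, 8 pericyte and 4 erythroid genes, and by 5539 of all 18322 genes. DESeq2 called 10, 9, 8 and 4 lower in the same order, and 1427 of all genes. Of the blood lineages, 2 of 8 monocyte, 0 of 5 neutrophil, 3 of 9 dendritic, 1 of 7 mast, 0 of 5 T and NK cell and 2 of 7 B and plasma cell genes fell, and 0 of them rose. Of the lists with no call, 2 neutrophil and 3 T and NK cell genes had an unadjusted p under 0.05, and DESeq2 called 0 of either. Over the 12 lists of immune genes and their ligands together, 51 of 121 tested genes fell and 4 rose, and the 51 became 20 without mouse 4. Both adipocyte genes that were tested, Fabp4 and Pparg, fell. By contrast, 1 of 10 luminal genes rose (Krt7) and 1 fell (Esr1), and 5 of 9 basal genes rose and 0 fell. Counts of fallen genes among endothelial markers went from 5 to 1 without mouse 1 or 2, to 10 without mouse 3 and to 3 without mouse 4, and those among fibroblast markers from 5 to 3, 2, 11 and 9 without mice 1 to 4.

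In the Dll1- cells of the mCh line against those of the GFP line, 11 of 11 endothelial, 11 of 11 fibroblast, 7 of 8 pericyte, 4 of 5 erythroid, 7 of 8 monocyte, 4 of 5 neutrophil, 6 of 9 dendritic, 6 of 7 mast, 4 of 5 T and NK cell and 4 of 7 B and plasma cell genes were higher, and 0 of these were lower. In that comparison 18.7% of all genes were called higher and 17.9% lower. Luminal genes were at 0 higher and 1 lower of 10, the 1 being Elf5, with 2 at an unadjusted p under 0.05, and DESeq2 called 0 higher and 2 lower. Summed levels of the neutrophil, T and NK and B and plasma lists were low throughout, at 9.84 to 46.3, 1.97 to 15.2 and 1.90 to 19.0 CPM, against 110.0 to 637 CPM for the 10 macrophage genes. In the GFP Dll1- libraries 7 of 12 neutrophil and 7 of 14 T and NK genes had fewer than 3 counts in each library.

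The 10 macrophage genes and the fibroblast and endothelial genes did not keep the same ratio between the 2 mCh mice. In Dll1- cells the summed level of the 10 genes was 597 CPM in mouse 3 and 637 CPM in mouse 4, a ratio of 1.07, and that of MHC class II was 761 and 731 CPM. The fibroblast sum was 2.87-fold, the endothelial sum 2.22-fold and the mast cell sum 2.86-fold higher in mouse 4, and the erythroid sum was 0.484 of that in mouse 3. Pericyte genes, at 1.27-fold, and the other mononuclear phagocyte genes, at 1.28-fold, lay nearer to the 10 genes. The resident macrophage sum was 1.59-fold and the monocyte sum 2.78-fold higher in mouse 4, but a few abundant genes can set a sum. The median ratio of single genes was 1.13 for the 10 genes, 1.03 for other mononuclear phagocyte and 1.8 for resident macrophage genes. For monocyte genes that median was well below the ratio of sums and nearer to the 10 genes. For fibroblast and endothelial genes it was close to the ratio of sums. Within mice 3 and 4, the ratio of summed levels, Dll1- over Dll1+, was 2.24 and 2.22 for the 10 genes and 2.27 and 6.25 for fibroblast genes. It was 1.77 and 3.94 for endothelial, 2.64 and 2.49 for erythroid, 3.09 and 4.1 for pericyte and 1.89 and 2.23 for MHC class II genes. For other mononuclear phagocyte genes it was only 1.1 and 1.14, and for resident macrophage genes 0.784 and 1.22. The median log2 fold changes of those lists in the mCh mice were nevertheless -1.10 and -1.29. In mice 1 and 2 the ratio of summed levels was 0.876 and 0.679 for the 10 genes, and F13a1 made most of the difference. The other 9 summed to 120 CPM in Dll1- and 123 CPM in Dll1+ cells of mouse 1 and to 96.5 and 112 CPM in those of mouse 2.

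**Figure D4:**
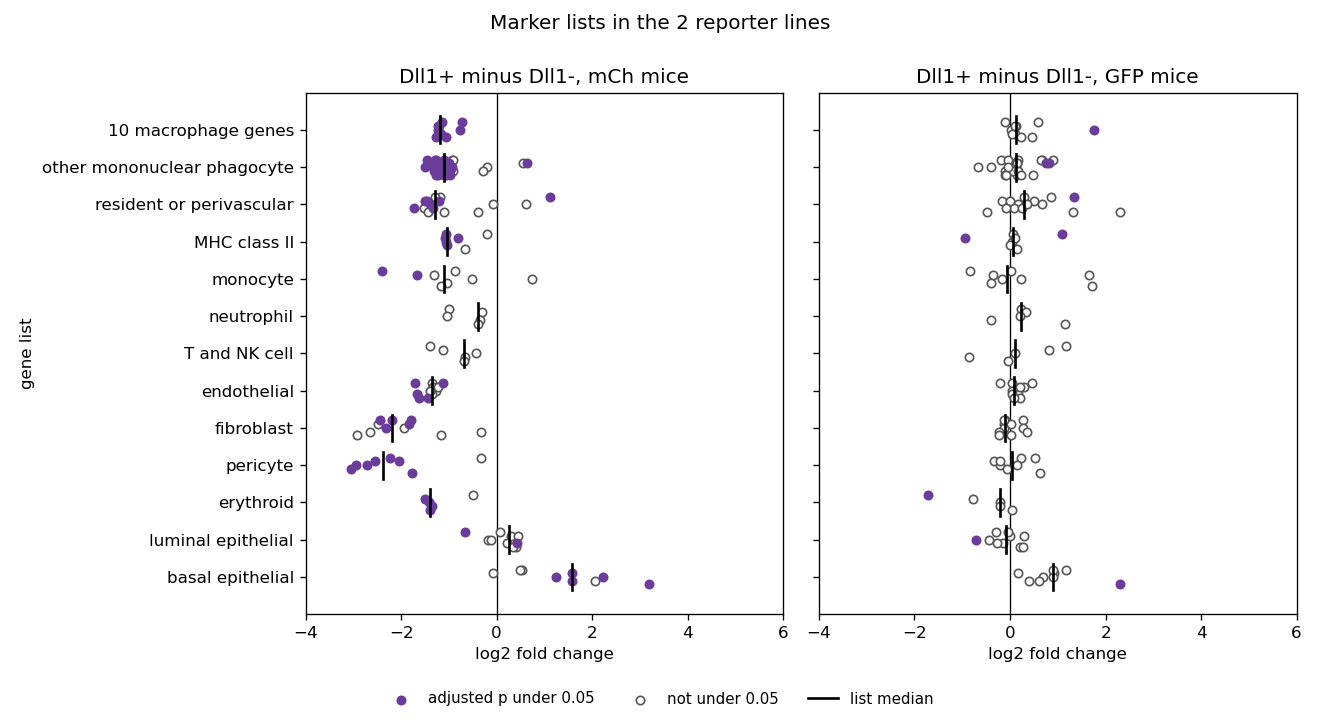
Log2 fold change between Dll1+ and Dll1- cells of each tested gene in 13 lists, in the mCh mice (left) and the GFP mice (right), with filled points at an adjusted p under 0.05 and a bar at the median. In the mCh mice the medians of the macrophage, MHC class II, endothelial, fibroblast, pericyte and erythroid lists lie at -1.05 to -2.39 and that of basal genes at 1.57, while in the GFP mice the same medians lie at -0.22 to 0.89.

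The 15 genes whose pattern over the 8 libraries was most like the mean of the 10, by Pearson r of log2 CPM taken over the 14899 other genes whose mean level reached 1 CPM, included Osm at 0.992, C5ar1 at 0.990, Clec4n at 0.988, Vtn at 0.987, Gucy1a1 and Rgs4 at 0.986, and Procr, Pf4 and Nostrin at 0.985. Cd302 and Nfam1 at 0.984, Cygb at 0.983 and Pear1 and Ushbp1 at 0.982 were also among the 15. The median r of all those genes was 0.0911. Osm, a cytokine of the interleukin 6 family, was at 0.901 to 1.46 CPM in the GFP libraries, 5.79 and 8.32 CPM in mCh Dll1- cells and 2.52 and 2.84 CPM in mCh Dll1+ cells. C5ar1, the receptor for complement fragment C5a, was at 0.832 to 1.52, 4.88 and 6.80, and 2.03 and 2.79 CPM. Of the 100 most alike, 3 came from 27 candidates in the other phagocyte list, 2 from 13 resident macrophage and 1 from 10 complement genes. Of the other lists, 4 came from 8 pericyte, 3 from 11 endothelial, 1 from 11 fibroblast and 1 from 2 adipocyte genes. The median r was 0.965 for pericyte, 0.96 for fibroblast and 0.955 for endothelial genes. It was 0.948 for other phagocyte, 0.914 for resident macrophage, 0.912 for adipocyte and 0.865 for erythroid genes, so the pattern was not particular to macrophage genes. With 8 libraries in 2 lines these coefficients describe the pattern and carry no test.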

How the data were processed

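The deposited table holds estimated counts per gene for the 8 libraries, which the authors made by mapping reads with salmon to GENCODE mouse transcripts on GRCm38.p6 and summing transcripts to genes with tximport. The values are whole numbers and not normalised, with 53668 of 53697 genes matched to a symbol. The libraries came from a stranded kit. The members, the other gene lists and the tests were chosen with earlier results of these data known.

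From the counts, edgeR 4.0.16 (R 4.3.3) gave TMM factors, CPM, log2 CPM with a prior count of 2, and robust quasi-likelihood tests of 18322 genes that passed filterByExpr on the Dll1 groups, with Benjamini-Hochberg adjustment over all of them and a threshold of 0.05. Dll1 effects were fitted with mouse as a block, over all mice and per reporter. The pairing comes from the mouse identifiers in the labels, so libraries with 1 replicate number within a line are the same mouse. The lines were compared in a model of 4 groups. Alternatives were DESeq2 1.42.0, other scalings and filters, no block, a random block in limma 3.58.1, the compared libraries alone, and each mouse left out. The fits were tested on simulated data that held no mouse or line effect, with changes placed only in genes above the median level. That test therefore does not cover the mouse block or scarcer genes. In the Dll1 tests p-values measure the spread of the differences within mice, and in the line tests the spread within the 4 groups of 2 mice. Both draw on all 8 libraries and on the other genes for the size of that spread. The line tests treat the 2 libraries of 1 mouse as independent, except with the random block. Counting precision at 3 counts is given beside the depths.

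The rule for named genes was all members, up to 4 genes of each other list by highest mean CPM, the recruitment ligands, Ptprc, Pecam1, Epcam and Dll1, and the 15 genes most like the members. Lists of other cell types are given mainly as counts. Some genes that the rule names are not reported here. Genes named as exceptions, or to say which genes a count holds, were picked after their values were seen. Standard errors are the log2 fold change over the square root of the test's F. Coordinates and exon lengths come from GENCODE on GRCm38.p6, and start regions from RefSeq.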

Additional observations from a re-analysis of the deposited data

Results flagged for a closer look

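For 6 of the 10 macrophage genes the Dll1+ to Dll1- difference was flagged between the 2 reporter lines, 2 by a test and 4 by direction in all 4 mice. How many of all genes share that pattern of directions was not counted. All 10 genes differed the same way between the lines, by 1.03 to 2.52 on the log2 scale, so the 6 are not set apart from the rest by size. Because the genes were chosen with these data known, neither the test nor the direction is independent support. For Lyz2 and F13a1 the test of the difference itself passed, with the GFP effect above the mCh effect by 1.25 and 2.52 on the log2 scale (edgeR quasi-likelihood, adjusted p = 0.0356 and 0.0233). Both GFP mice were above 0 and both mCh mice below 0 for these genes, with Lyz2 at only 0.03 and 0.07 in the GFP mice.

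For Csf1r, Cd68, Mrc1 and Cd163, both GFP mice likewise lay above 0 and both mCh mice below 0, and the mean difference between the lines was 1.30, 1.29, 1.47 and 1.51 on the log2 scale. In the GFP mice Csf1r was at only 0.06 and 0.15 and Mrc1 at 0.04 and 0.38, against 0.54 and 0.62 for Cd68 and 0.70 and 0.24 for Cd163. The test of the difference missed the threshold for these 4, with edgeR adjusted p = 0.0538, 0.0799, 0.0856 and 0.149. Without GFP mouse 1 or 2 the test called 0 of the 10 genes, with 10 and 9 at an unadjusted p under 0.05, while DESeq2 on all mice called 8.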

How the results depend on the processing

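Of the 64 counts of called genes, 1 for each comparison and setting, 36 stayed within 1.5 times the reported count, and of the fold changes of the 10 genes 608 moved by less than the spread between mice, 32 by more, and 0 of those called changed sign. Mouse is a block in the reported Dll1 comparisons. With no replicate block, calls over 4 mice went from 2568 to 0 (1624 genes at an unadjusted p under 0.05), in the GFP mice from 1673 to 274, in the mCh mice from 2154 to 212 and for the difference between lines from 13 to 0 (1309), and the members called lower in the mCh mice from 10 to 5. With the block as a random effect in limma, the line comparisons gave 6091 calls in Dll1- and 5059 in Dll1+ cells, against 6701 and 5612. The mCh mice fitted alone gave 0 (5512). DESeq2 gave 4362 over 4 mice and 541 for the difference. With no filter on low counts there were 3001 calls in the GFP mice, 3637 in the mCh mice and 1143 for the difference, and with 10 counts in every library 44 for the difference. Members called in that difference went from 2 to 8 by DESeq2, 10 with no filter and 6 with 10 counts in every library. Leaving out 1 mouse gave 405 to 2400 calls over 4 mice, 2 to 2355 in the GFP mice, 905 to 1315 in the mCh mice, 0 to 717 for the difference, 0 to 7828 between lines in Dll1- cells and 0 to 6897 in Dll1+ cells. The counts of 0 came without either GFP mouse, although 1808 to 5529 genes had an unadjusted p below 0.05, and the lone mouse is assumed to vary like the others. The cause was not tested. Cd163, at 38 to 422 counts, rests on the least depth.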
